A study of Mus musculus with 12 samples.

Results

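The genes described here encode the proteins of the cytosolic ribosome, named Rpl or Rplp for the large and Rps or Rpsa for the small subunit. Members were taken by name: protein-coding mouse symbols Rpl or Rps followed by digits and at most one of the letters a, l or x, together with Rplp0, Rplp1, Rplp2 and Rpsa. Of the 42687 gene rows in the count table, 82 rows fitted that name, 2 of them were annotated as pseudogenes and left out, and 80 remained (49 of the large and 31 of the small subunit). The name rule uses no measured value, but these genes were picked for description with earlier results of these data known.

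Each ribosome needs one copy of nearly every one of these proteins, and cells produce them in balance. Their mRNAs are short, very abundant and known for a run of pyrimidines at the very start of the transcript (the 5′ terminal oligopyrimidine, or TOP, motif), through which mTOR signalling and the RNA-binding protein LARP1 control how much of each mRNA is translated and kept. Several members also act outside the ribosome: RPL5 and RPL11 bind MDM2 and so spare p53, and RPL13A was described as part of a complex that silences inflammatory mRNAs in interferon-treated myeloid cells. In dendritic cells, translation and its control are known to change upon activation.

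The cells were DC2.4, an immortalised mouse dendritic cell line of wild-type genotype, and mRNA was sequenced from 12 libraries in 4 groups of 3. All groups were grown in the same serum-containing medium. One group was given PBS, the second extracellular vesicles of activated T cells (ATEV, 15 µg/mL), the third vesicles of non-activated T cells (NTEV, 30 µg/mL), and the fourth ATEV at 15 µg/mL that had first been treated with Baseline-ZERO DNase (written DNAse-ATEV below, as the labels spell the group). The vesicle amount therefore differed between ATEV and NTEV; the labels relate the doses to the amount of vesicle DNA. Cells were collected and replated a day after treatment, and the labels leave unclear whether the stated 3 repeats are successive rounds on the same cells or separate experiments. Nothing says that the 3 libraries of a group were separate cultures, so each p-value speaks of the scatter among these libraries alone, and that scatter may be technical.

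Libraries held 19.4 to 30.4 M gene counts. Of the 21 dendritic and myeloid markers listed for the cell line, 13 were expressed highly enough to be tested. Cd68 stood between 856 and 1292 CPM (counts per 1 M of TMM-scaled library size), Ptprc between 242 and 329 CPM and Spi1 between 119 and 181 CPM over all libraries, whereas Clec9a had no count in any library and Flt3 and H2-Aa were at or near 0. The list also moved with treatment: 5 of the 13 were called higher with ATEV against PBS and 0 lower, where 3.32% and 1.42% of all genes were. Their median log2 fold change was 0.41, with 11 values above 0 and 2 below. With NTEV against PBS 2 were called higher (1.7% of all genes) and 0 lower (0.611%), and with DNAse-ATEV 0 either way (0%). DNAse-ATEV libraries lay wholly above PBS for 6 of the 13 (7.69% of all genes) and wholly below for 1 (5.68%). The integrin Itgax stood at 12.7 to 20.3 CPM with PBS and 30.9 to 45.8 CPM with ATEV, and the lysozyme gene Lyz2 at 1452 to 1885 CPM and 2468 to 5413 CPM. Batf3 had a lower mean with ATEV (5.05 CPM) than with PBS (6.24 CPM), and its libraries overlapped. Of 18 T cell markers, looked at because the vesicles came from T cells, 5 had no count in any library (Cd3e, Cd8a, Trbc1 and Trbc2 among them), and the summed level of the list ran from 85.6 to 137 CPM of raw counts with PBS and from 85.7 to 135 with ATEV. Its 5 tested genes moved both ways: 4 had a positive fold change with ATEV against PBS, at a median of 0.62 over the 5, and the costimulatory receptor Cd28 was called lower (log2 fold change -0.83, edgeR adjusted p = 0.0488). Cd28 was also called lower with NTEV against PBS (-1.07, edgeR adjusted p = 0.0266), and stood at -0.70 with DNAse-ATEV, not called. Its mean level was 72.2 CPM with PBS, 40.7 with ATEV, 34.4 with NTEV and 44.5 with DNAse-ATEV. What part these shifts have in the values of the ribosomal protein genes was not tested. In bulk RNA, fewer cells of a type and less RNA per cell cannot be told apart.

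For 60 of the 80 members a promoter window was found in the RefSeq table (build GRCm38.p6), which allows a look at the transcript start. The 10 windows below hold 15 bases before and 15 bases from the annotated start, written 5′ to 3′ on the gene's strand, with the longest pyrimidine run that touches the first 5 transcribed bases in capitals. They are the members with a window that stood lowest and highest when ATEV was compared with PBS, leaving aside Rpl24 and Rpl3l, whose few counts make their high values (0.78 and 0.65) imprecise, and are shown so that the starts at both ends of that order can be compared. The 5 lowest were the following.
Rps4x (chrX:102189377-102189406, minus strand): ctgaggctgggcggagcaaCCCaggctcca
Rps2 (chr17:24720048-24720077, plus strand): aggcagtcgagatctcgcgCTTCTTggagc
Rpl23 (chr11:97782425-97782454, minus strand): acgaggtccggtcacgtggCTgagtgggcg
Rps26 (chr10:128626492-128626521, minus strand): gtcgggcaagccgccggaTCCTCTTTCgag
Rpl4 (chr9:64173372-64173401, plus strand): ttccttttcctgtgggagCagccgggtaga
The 5 highest were these.
Rpl34 (chr3:130730323-130730352, minus strand): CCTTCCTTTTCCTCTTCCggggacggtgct
Rps18 (chr17:33955651-33955680, minus strand): tacgtcacttccgCTCTCTCTTCCacagga
Rpl13a (chr7:45128731-45128760, minus strand): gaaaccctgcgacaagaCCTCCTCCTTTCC
Rps12 (chr10:23787195-23787224, minus strand): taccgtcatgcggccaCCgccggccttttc
Rpl9 (chr5:65391417-65391446, minus strand): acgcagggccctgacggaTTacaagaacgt

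Long and short runs occurred at both ends. Rpl34 had a run of 20 pyrimidines and Rpl13a one of 14, each reaching past the edge of the window, but Rps12 and Rpl9 had runs of 2. At the low end Rps26 had 9 and Rps2 had 6, and Rpl4 had 1. Annotated starts are not measured starts in these cells, so a short run says only that the letters are not at the annotated position. Over the 60 members with a window, 28 (46.7%) had a run of at least 5 pyrimidines touching the first 5 bases, against 22.8% of the 27025 genes with a window, and 20 (33.3%) had a run of at least 8, against 7.02%. The letters GGAAG, the core of the ETS and GABPA binding motif, searched on both strands over 250 bases before and 50 after the start, occurred in 55 of 60 member windows (91.7%) and in 73.9% of all. TATAAA, the TATA box letters, occurred in 10% of member windows against 15.7% of all, CACGTG, the E-box bound by MYC, in 10% against 8.09%, and TGACGTCA, the CRE bound by CREB and ATF, in 8.33% against 2.03%. Such a match is a description of letters and not of binding.

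Ribosomal protein mRNA took up a large part of every library. The summed share of the 80 members was 6.28, 6.46 and 7.49% of library counts in the 3 PBS libraries, 7.68, 7.98 and 9.86% with ATEV, 6.02, 7.08 and 6.68% with NTEV and 6.16, 7.19 and 8.17% with DNAse-ATEV. By this raw share all ATEV libraries lay above all PBS and all NTEV libraries, by a narrow margin for ATEV replicate 1. They overlapped DNAse-ATEV, whose highest library lay above ATEV replicates 1 and 2. With TMM scaling ATEV and PBS overlapped: the tested members summed to 73352 CPM in ATEV replicate 1 and 74475 CPM in PBS replicate 3. On that scale DNAse-ATEV replicate 3 (77926 CPM) lay above ATEV replicate 1 but below ATEV replicate 2 (79741 CPM). Group means were 6.74 ± 0.655% for PBS, 8.50 ± 1.18% for ATEV, 6.60 ± 0.538% for NTEV and 7.17 ± 1.01% for DNAse-ATEV (SD, n = 3). A sum over chosen members was given no test. Large subunit genes made up 4.03 ± 0.375% of counts with PBS and 4.90 ± 0.570% with ATEV, and small subunit genes 2.71 ± 0.281% and 3.6 ± 0.62%. The 276 ribosomal pseudogene rows of the table, which can catch reads of the members, held 0.0455 to 0.0929% of a library, so that their inclusion left the ATEV mean at 8.58%.

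**Figure D1:**
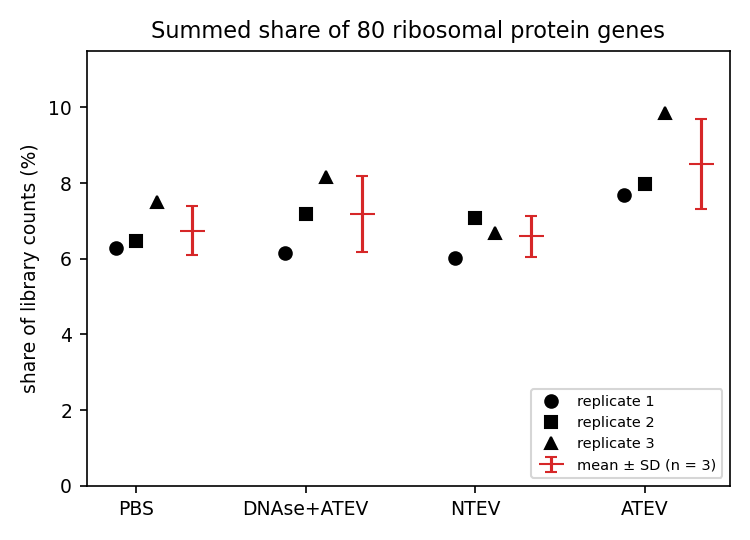
Summed counts of the 80 ribosomal protein genes as a percent of all gene counts (y axis) for each library (black symbols, one shape for each replicate number) in the 4 groups, with the group mean ± SD beside them (red, n = 3). The ATEV libraries lie between 7.68 and 9.86%, above the PBS libraries at 6.28 to 7.49%. These shares are not TMM-scaled, and with TMM scaling the ATEV and PBS libraries overlap.

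Levels differed widely among members. By mean CPM over all libraries, Rplp0, the scaffold of the ribosomal stalk that recruits elongation factors, was highest at 3819 CPM, followed by Rpl4 at 2778 and Rpsa at 2679 CPM. Per kilobase of mRNA the order was Rpl41 (3074 CPM per kb), which encodes a very small basic protein, then Rplp1 (2878) and Rplp0 (2812), the stalk proteins. At the other end were the tissue-restricted paralogs. Rpl10l, the retrogene of Rpl10 used in the male germ line, had no count in any library. Rpl39l, the corresponding paralog of Rpl39, had 2 counts in all, 1 each in NTEV replicates 1 and 2. Rpl3l, the striated-muscle form of Rpl3, averaged 0.388 CPM. A pair of low values belong to genes that every cell is known to need: the row for Rpl24, a large subunit protein, held 4 to 18 counts per library (0.485 CPM on average), and Rpl13a stood at 78.3 CPM. The read counter and the annotation behind the table are not stated in these sources. How reads were divided between such genes and their copies is therefore uncertain, and the values of these 2 genes carry that limit. Rpl10l and Rpl39l were below the filter on low counts, and the other 78 members were tested.

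The libraries of the ATEV group differed among themselves in these genes more than those of any other group. The median deviation of the members from the PBS mean, in log2 CPM, was 0.08 in ATEV replicate 1, 0.24 in replicate 2 and 0.61 in replicate 3, against -0.06, -0.06 and 0.12 in the PBS libraries. NTEV libraries stood at -0.13, -0.03 and -0.01 and DNAse-ATEV libraries at -0.10, -0.02 and 0.17. Over all tested genes the same median lay between -0.00 and 0.02 in every library. Of the 76 members with enough counts for this measure (without Rpl24 and Rpl3l), 49 stood more than 0.5 above the PBS mean in ATEV replicate 3, 12 in replicate 2 and none in any other library. The range between the 3 libraries of a group exceeded 0.5 log2 for 42 of these 76 with ATEV, 0 with PBS, 0 with NTEV and 3 with DNAse-ATEV. Counting noise over the members was exceeded in every pair of replicates, with a chi-square per degree of freedom of 251, 676 and 122 for the ATEV pairs and 13.6 to 75.1 for the others. By these medians ATEV replicate 3 thus stood furthest from the PBS mean, with replicate 2 between it and replicate 1. The counts, the medians and the main members are given below also without replicate 3.

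**Figure D2:**
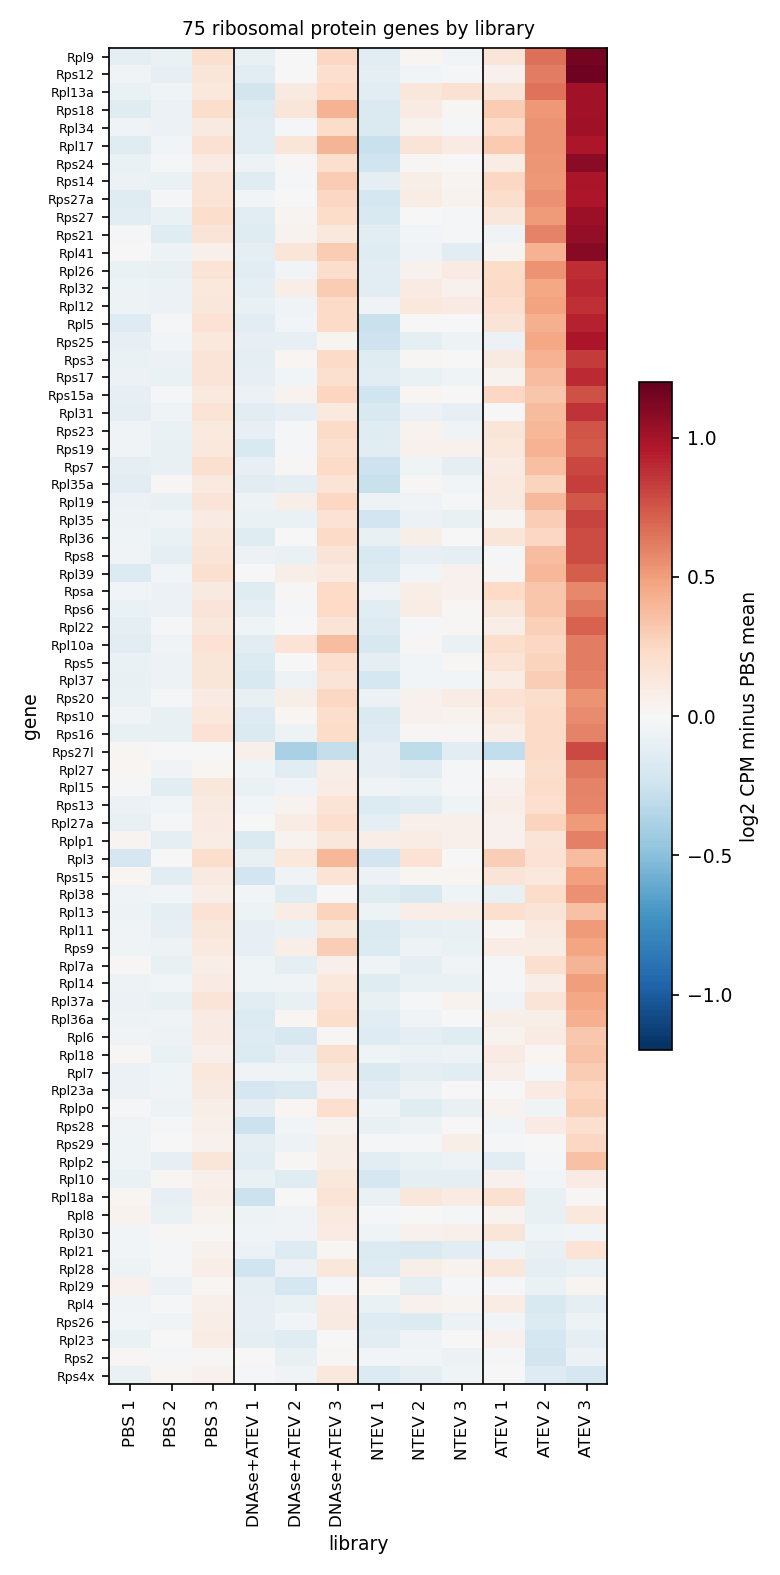
Each row is 1 of 75 ribosomal protein genes and each column 1 library; colour is log2 CPM minus the PBS mean (red higher, blue lower), with rows in the order of their log2 fold change with ATEV against PBS. ATEV replicate 3 is the reddest column, followed by replicate 2, and the rows at the foot of the map, such as Rps2 and Rps4x, are near or below 0 in both.

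The shift in ATEV replicates 2 and 3 was graded from gene to gene. In ATEV replicate 3 it ran from -0.21 (Rps4x) to 1.17 (Rps12), and in replicate 2 from -0.22 (Rps2) to 0.66 (Rpl9). In ATEV replicate 1 the extremes were Rps27l at -0.30 and Rpl17 at 0.31. Across the 76 genes the shifts of replicates 2 and 3 followed one another closely (Pearson r = 0.96, Spearman rho = 0.96), and those of replicates 1 and 3 weakly (r = 0.26, rho = 0.30). These correlations are across genes, which are not independent replicates, and the points share the PBS mean as reference and the libraries' depth, so they stand as descriptions. Spearman's rho between a gene's shift with ATEV and its coding length was -0.19 for the fitted fold change, 0.24 in replicate 1, -0.18 in replicate 2 and -0.26 in replicate 3, so that its sign differed between the libraries. For the fitted fold change there was little relation to number of exons (-0.02), mRNA GC content (-0.15), number of named pseudogene rows (0.09) or, in the 56 of these genes with a window, length of the pyrimidine run printed above (0.04).

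**Figure D3:**
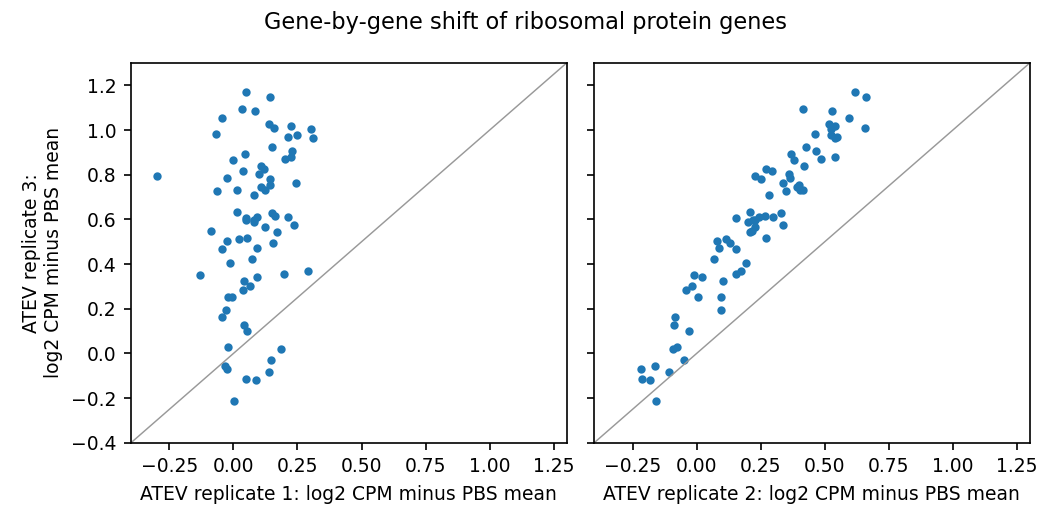
Each point is 1 of 76 ribosomal protein genes; both axes give log2 CPM minus the PBS mean, for ATEV replicate 1 (left panel, x axis) or replicate 2 (right panel, x axis) against replicate 3 (y axis in both), with the line of equality in grey. Points in the right panel lie close to a rising curve (r = 0.96), and those in the left panel form a steep cloud (r = 0.26).

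ATEV against PBS asks how the cells' transcripts differed after vesicles of activated T cells. No member passed the test: with edgeR's quasi-likelihood test 0 of 78 had an adjusted p under 0.05, where 4.74% of all 13261 tested genes did (3.32% higher and 1.42% lower). At an unadjusted p under 0.05 the count was 39 (50%), against 26.8% of all genes. DESeq2's Wald test called 16 members, all higher, where it called 11.6% of all genes, and limma-voom called 0, against 3.97%. The fitted log2 fold change was above 0 for 71 members (91.0%, against 53.3% of all genes), with a median of 0.33 over the members and 0.03 over all tested genes. The 3 ATEV libraries lay above all 3 PBS libraries for 18 members (23.1%, against 16.3%) and below them for 0 (against 16.8%). Small subunit genes had a median of 0.39 and large subunit genes one of 0.29.

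These counts depended on the library left out. Without ATEV replicate 1, 26 members were called higher, where 6.31% of all genes were called. Without replicate 2 or without replicate 3 no member was, where 1.53% and 2.11% of all genes were. The median was 0.19 without replicate 3 and 0.09 without replicates 2 and 3 together. Of the 31 members named here with a value above 0, 26 were lower by more than 1.5 times, or below 0, without replicate 3. Apart from Rpl24 and Rpl3l, the tested members were deeply counted: the least abundant, Rpl13a, had at least 1198 counts in each library.

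Rpl34, a large subunit protein, had the smallest adjusted p. Its level was 387, 379 and 429 CPM with PBS and 465, 578 and 806 CPM with ATEV, with 354, 409 and 391 CPM with NTEV and 362, 392 and 463 CPM with DNAse-ATEV. All ATEV values lay above those of PBS and NTEV, and the lowest of them was close to the highest of DNAse-ATEV. The log2 fold change against PBS was 0.63 ± 0.18 (SE; edgeR adjusted p = 0.0594), just outside the threshold, and 0.40 without ATEV replicate 3. Rpl9 gave 734, 756 and 911 CPM with PBS and 878, 1259 and 1767 CPM with ATEV, a log2 fold change of 0.70 ± 0.21 (edgeR adjusted p = 0.0691) with ATEV replicate 1 inside the PBS range. Rps12, a small subunit protein, gave 992, 953 and 1126 CPM with PBS and 1055, 1566 and 2296 CPM with ATEV, a log2 fold change of 0.68 ± 0.22 (edgeR adjusted p = 0.0863), again with replicate 1 inside the PBS range. Without ATEV replicate 3 the value of Rpl9 was 0.43 and that of Rps12 0.37. Rpl13a stood at 63.6, 65.0 and 73.4 CPM with PBS and 75, 106 and 135 CPM with ATEV, groups that did not overlap (log2 fold change 0.65 ± 0.19, edgeR adjusted p = 0.0656, and 0.44 without replicate 3).

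At the other end of the order, Rps4x, the X-linked small subunit protein S4, stood at 1241, 1333 and 1357 CPM with PBS and 1311, 1173 and 1131 CPM with ATEV, a log2 fold change of -0.12 ± 0.12 (edgeR adjusted p = 0.528). Rps2, at the mRNA entry of the small subunit, stood at 1578, 1531 and 1570 CPM with PBS and 1535, 1341 and 1485 CPM with ATEV (-0.10 ± 0.11, edgeR adjusted p = 0.586). The groups overlapped for both. Rpl23 (-0.09), Rps26 (-0.08) and Rpl4 (-0.07) were next. Values varied among the members, with an SD of 0.22 over the 78 log2 fold changes, against 0.09 for DNAse-ATEV with PBS and 0.10 for NTEV with PBS. Over all tested genes the SD was larger in each: 0.57 for ATEV, 0.36 for DNAse-ATEV and 0.49 for NTEV with PBS. The members' SDs include Rpl24 and Rpl3l, with their few counts.

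**Figure D4:**
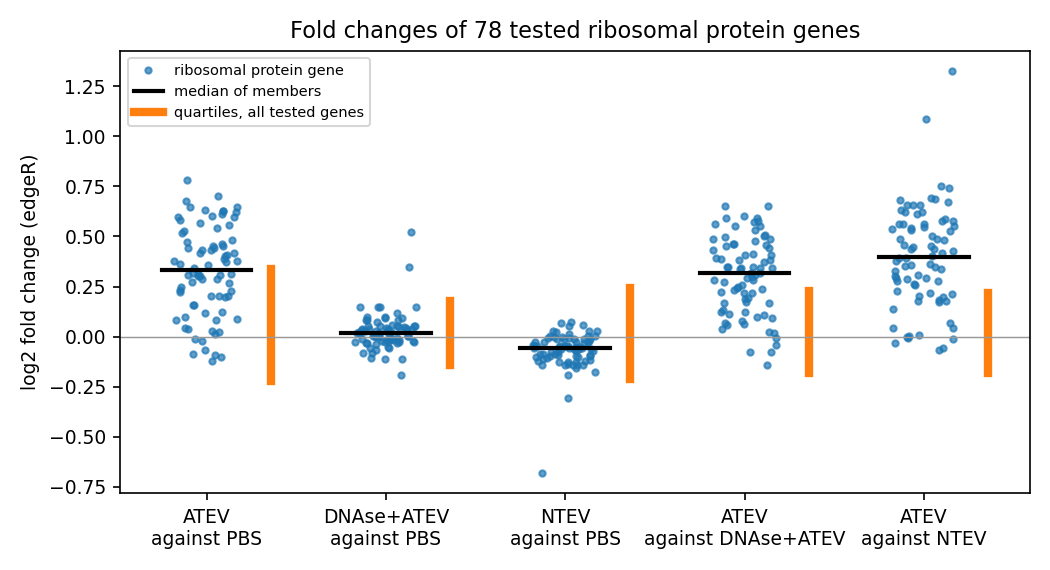
Log2 fold change (y axis, edgeR) of each of the 78 tested ribosomal protein genes (blue points) in the 5 comparisons (x axis), with the median of the members (black line) and the quartiles of all 13261 tested genes (orange bar). Medians are 0.33, 0.02, -0.06, 0.32 and 0.40 from left to right, and no point passed the edgeR test.

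The stalk and the 5S particle are small assemblies within the large subunit. In the stalk, Rplp0 was 3749, 3634 and 3977 CPM with PBS and 3885, 3677 and 4608 CPM with ATEV (log2 fold change 0.10 ± 0.14, edgeR adjusted p = 0.669). Its partners Rplp1 and Rplp2 had log2 fold changes of 0.29 and 0.08, and the ATEV and PBS libraries overlapped for all 3 genes. Without ATEV replicate 3 the values were 0.01 for Rplp0, 0.11 for Rplp1 and -0.06 for Rplp2. Rpl5 and Rpl11, which join the 5S ribosomal RNA and bind MDM2, had log2 fold changes of 0.53 ± 0.19 and 0.23 ± 0.15 (edgeR adjusted p = 0.110 and 0.327). Rpl5 stood at 1120, 1235 and 1415 CPM with PBS and 1388, 1681 and 2371 CPM with ATEV, replicate 1 again inside the PBS range. Rpl26, which was described to bind p53 mRNA, stood at 617, 614 and 732 CPM with PBS and 762, 949 and 1201 CPM with ATEV, with no overlap (0.57 ± 0.17, edgeR adjusted p = 0.0685). Without replicate 3 the values were 0.30 for Rpl5, 0.08 for Rpl11 and 0.40 for Rpl26.

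Among the other large subunit members of the panel, Rpl3, at the peptidyl transferase centre, had a log2 fold change of 0.27, Rpl10, a late joining protein of the same subunit, 0.04, Rpl10a 0.36, Rpl22 0.38, Rpl36a 0.20, Rpl39, which lines the exit tunnel, 0.40, Rpl41 0.58 and Rpl38, known from mouse skeletal patterning, 0.25. None passed the test. Of these 8, the ATEV libraries lay wholly above the PBS libraries for Rpl10a alone. Without ATEV replicate 3 Rpl10a stood at 0.23, Rpl22 at 0.19, Rpl36a at 0.08, Rpl39 at 0.22, Rpl41 at 0.25 and Rpl38 at 0.08.

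Among small subunit members, Rps27a, which encodes ubiquitin fused to S27a, stood at 883, 964 and 1090 CPM with PBS and 1130, 1428 and 1907 CPM with ATEV, without overlap (log2 fold change 0.60 ± 0.18, edgeR adjusted p = 0.0723). Rps14, known from the 5q- syndrome, gave 0.61 ± 0.18 (edgeR adjusted p = 0.0695), also without overlap. Rps6, the S6 kinase substrate, gave 0.38, Rps19, the gene most often mutated in Diamond-Blackfan anaemia, 0.44, Rps3 0.48, Rps7 0.44, Rps20 0.32 and Rpsa, the laminin receptor homologue, 0.39. Of these 6, Rps20 and Rpsa had ATEV libraries wholly above PBS. None passed the test. Without ATEV replicate 3, Rps27a and Rps14 both stood at 0.40, Rps6 at 0.25, Rps19 at 0.29, Rps3 at 0.28, Rps7 at 0.24, Rps20 at 0.20 and Rpsa at 0.30.

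Rps27 had a log2 fold change of 0.60 ± 0.20 with ATEV against PBS (edgeR adjusted p = 0.0906; 0.34 without ATEV replicate 3) and has a p53-inducible paralog, Rps27l. Rps27l was 166, 163 and 164 CPM with PBS, 134, 192 and 285 CPM with ATEV, 153, 133 and 149 CPM with NTEV and 172, 126 and 134 CPM with DNAse-ATEV. The PBS libraries lay close together, and the ATEV libraries lay on both sides of them. Of the pair's counts, Rps27l took 19.7 ± 2.05% with PBS, 16.4 ± 0.990% with ATEV, 18.5 ± 1.99% with NTEV and 17.3 ± 3.99% with DNAse-ATEV (SD, n = 3), and the groups overlapped except ATEV and PBS, whose nearest libraries were 17.2 and 17.4%. The log2 fold change of Rps27l was 0.31 ± 0.21 (edgeR adjusted p = 0.362) and -0.00 without ATEV replicate 3. Reads of near-identical copies can be split by the authors' counting, so these shares are uncertain in level.

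DNAse-ATEV against PBS asks what remained after the vesicles had been treated with DNase. The edgeR test called 0 of 78 members and 0% of all genes. At an unadjusted p under 0.05 it gave 0 members, against 5.96% of all genes. DESeq2 and limma-voom called 0 members too, against 0.287% and 0% of all genes. The members' median log2 fold change was 0.02, against 0.00 over all genes, 49 lay above 0 (62.8%, against 50.5%), and for 0 members the groups were without overlap (against 7.69% higher and 5.68% lower). The median changed sign with the library left out, from -0.07 without DNAse-ATEV replicate 3 to 0.08 without DNAse-ATEV replicate 1. Leaving aside Rpl24 (0.52) and Rpl3l (0.35), with their few counts, the values ran from -0.19 (Rps27l), -0.11 (Rpl29) and -0.11 (Rpl6) to 0.15 (Rpl17).

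NTEV against PBS asks the same of vesicles of non-activated T cells. The edgeR test called 0 of 78 members, where it called 2.31% of all genes (1.7% higher and 0.611% lower). At an unadjusted p under 0.05 there were 0 members, against 19.1% of all genes. DESeq2 and limma-voom called no member, against 6.49% and 1.58% of all genes. The median was -0.06 over the members and -0.00 over all genes. The fitted value was above 0 for 12 members (15.4%, against 49.7%). NTEV libraries lay wholly below PBS for 11 members (14.1%, against 11.1% of all genes), among them Rpl10, Rpl38, Rps2 and Rps27l, and wholly above for 0 (against 12.8%). Rplp1 and Rpl13a had the largest values (0.07 each). The median was -0.01 without PBS replicate 3 and -0.01 without NTEV replicate 1.

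ATEV against DNAse-ATEV compares the same vesicles at the same dose with and without DNase. The edgeR test called 0 of 78 members, where it called 1.46% of all genes (1.32% higher and 0.143% lower). At an unadjusted p under 0.05 there were 38 members (48.7%, against 15.2%). DESeq2 called 2 (Rpl34 and Rpl26), where it called 3.73% of all genes, and limma-voom 0, against 1.37%. The median was 0.32 over the members and 0.00 over all genes, and 73 members lay above 0 (93.6%, against 50.4%). The libraries did not overlap, with ATEV higher, for Rpl6, Rpl26, Rpl34 and Rpsa (5.13%, against 10.1% of all genes), and for 0 members with ATEV lower (against 10%). Rps12 (0.65), Rpl9 (0.65) and Rpl34 (0.60 ± 0.18, edgeR adjusted p = 0.138) had the largest values and Rps4x (-0.14), Rps2 (-0.08) and Rps26 (-0.08) the most negative. Without ATEV replicate 1, 14 members were called (3.88% of all genes), and without replicate 3 none (0.764%), at a median of 0.15. The median was 0.07 without ATEV replicates 2 and 3. The DNAse-ATEV libraries are themselves spread: by raw share, replicate 3 (8.17% of counts in members) lay above ATEV replicates 1 and 2. With TMM scaling the tested members summed to 77926 CPM in DNAse-ATEV replicate 3. That was above ATEV replicate 1 (73352 CPM) but below ATEV replicate 2 (79741 CPM).

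ATEV against NTEV compares vesicles of activated and resting T cells given at different amounts. The edgeR test called 0 of 78 members, where it called 0.935% of all genes (0.875% higher and 0.0603% lower). At an unadjusted p under 0.05 there were 49 members (62.8%, against 13.4%). DESeq2 called 11, where it called 2.81% of all genes, and limma-voom 0, against 0.912%. The ATEV libraries lay above all NTEV libraries for 55 members (70.5%, against 8.61% of all genes) and below for 0 (against 7.16%). The median was 0.40, against -0.01 over all genes, and 72 members lay above 0 (92.3%, against 48.7%). Rpl9 (0.75 ± 0.21, edgeR adjusted p = 0.15) had the largest value among well counted members, and Rpl4 (-0.07), Rps2 (-0.06) and Rpl23 (-0.03) the most negative. Without ATEV replicate 1, 21 members were called (2.25% of all genes), and without replicate 3 none (0.608%), at a median of 0.24. Without both replicates 2 and 3 the median was 0.14. The 3 comparisons with ATEV share its libraries, and those with PBS share that group's, so their values are given side by side and are not independent.

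The genes that work with the ribosomal proteins were followed in lists chosen by function. Proteins of the cytosolic ribosome that the name rule misses had values in the range of the members' apart from Rpl7l1: Fau, which encodes a ubiquitin-like fusion with S30, had a log2 fold change of 0.46 ± 0.17 with ATEV against PBS (edgeR adjusted p = 0.118) and Rack1, the scaffold on the head of the small subunit, 0.44 ± 0.16 (edgeR adjusted p = 0.112). None of the 7 passed the test, where 4.74% of all genes did. Their median was 0.27, with Rps3a1 at 0.22, Rpl36al at 0.27, Rpl22l1 at 0.33 and Rpl7l1 at -0.26. By library the list's median was 0.05, 0.25 and 0.62 in the ATEV replicates, beside 0.08, 0.24 and 0.61 for the members. Translation factors and other mRNAs known to carry a TOP motif had a median near 0. It was -0.02, and by library 0.05, -0.03 and -0.02, and 0 of the 20 genes passed (4.74% of all genes). Among them Tpt1 stood at 0.46 (edgeR adjusted p = 0.121), the elongation factor Eef1a1 at 0.28 and Eef2 at -0.01, while Npm1, a nucleolar chaperone, stood at -0.33. The difference between the lists was not tested. Of 28 initiation factors 0 passed (4.74% of all genes), at a median of -0.30.

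Ribosome biogenesis factors, which process ribosomal RNA and assemble the subunits in the nucleolus, stood on the other side of 0. Of 74 tested factors 72 had a negative fold change with ATEV against PBS, at a median of -0.44. The edgeR test called 2 lower and 0 higher, where it called 1.42% of all genes lower, and ATEV libraries lay wholly below PBS for 50 (16.8% of all genes). Nat10, an acetyltransferase of ribosomal RNA, fell from 145, 141 and 125 CPM to 89.8, 92.0 and 91.7 CPM (log2 fold change -0.59 ± 0.15, edgeR adjusted p = 0.0415), and Wdr36, of the small subunit processome, from 190, 180 and 157 CPM to 119, 106 and 119 CPM (-0.61 ± 0.16, edgeR adjusted p = 0.0468). Nucleolin (Ncl) stood at 3056, 2355 and 1752 CPM with PBS and 1458, 1204 and 1226 CPM with ATEV (-0.88 ± 0.29, edgeR adjusted p = 0.0888), and fibrillarin (Fbl) had -0.62 (edgeR adjusted p = 0.0704). By library the median of these factors was -0.40, -0.49 and -0.43 in the ATEV replicates. These 3 medians lay close together. The PBS libraries stood at 0.18, -0.03 and -0.15. NTEV stood at 0.03, -0.64 and -0.41 and DNAse-ATEV at 0.07, -0.33 and -0.30, in each of which replicate 1 lay among the PBS libraries. Leaving out any single PBS library, ATEV replicate 2 or ATEV replicate 3 left 0 factors called, at medians of -0.33 to -0.52, and leaving out ATEV replicate 1 left 4, neither Nat10 nor Wdr36 among them. DESeq2 called 18.

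The median of the biogenesis factors against PBS was -0.32 with NTEV and -0.19 with DNAse-ATEV. In either, 0 of 74 were called, where 2.31% and 0% of all genes were. The median was -0.26 for ATEV against DNAse-ATEV and -0.10 for ATEV against NTEV, again with 0 called, where 1.46% and 0.935% of all genes were. Among RNA polymerase I and its factors, which transcribe the ribosomal RNA genes, 1 of 15 passed, where 1.42% of all genes were called lower: Ubtf fell from 335, 298 and 271 CPM with PBS to 197, 167 and 182 CPM with ATEV (log2 fold change -0.73 ± 0.18, edgeR adjusted p = 0.0357). Polr1b, a core subunit of the polymerase, stood at -0.64 (edgeR adjusted p = 0.0911), and the list's median was -0.16. Against PBS the list's median was -0.31 with NTEV and -0.14 with DNAse-ATEV, with 0 of 15 called in either (2.31% and 0% of all genes). The ATEV and PBS libraries of Ubtf and Polr1b did not overlap. The call for Ubtf ended in each fit that left out 1 library other than ATEV replicate 1.

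**Figure D5:**
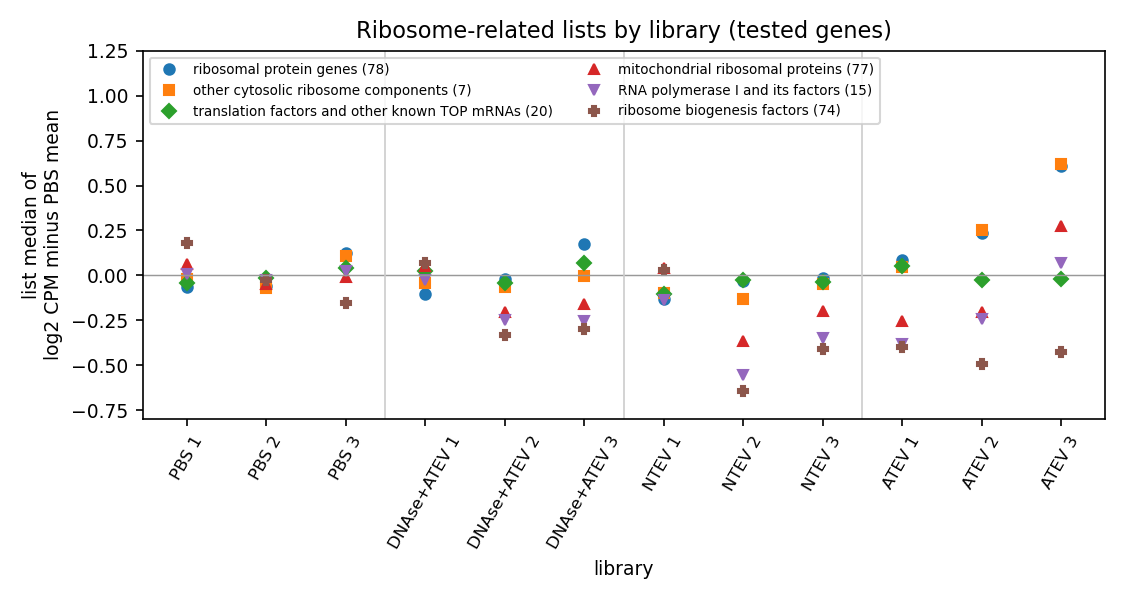
Median over the tested genes of each list (symbols, with the number of genes in the key) of log2 CPM minus the PBS mean (y axis), for each of the 12 libraries (x axis). In ATEV replicates 1, 2 and 3 the ribosomal protein genes stand at 0.08, 0.24 and 0.61, and the biogenesis factors at -0.40, -0.49 and -0.43.

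Mitochondrial ribosomal proteins, which form a separate ribosome and are nuclear encoded, had 1 of 77 tested members called with ATEV against PBS, where 4.74% of all genes were called, and a median of -0.06. Mrpl52 rose from 33.4, 29.3 and 28.1 CPM to 43.0, 50.9 and 75.8 CPM (log2 fold change 0.90 ± 0.18, edgeR adjusted p = 0.0131), and stood at 45.3, 44.5 and 43.4 CPM with NTEV and 38.5, 43.1 and 47.9 CPM with DNAse-ATEV. By library the list stood at -0.26, -0.20 and 0.27 in the ATEV replicates, so that replicate 3 was again the highest of the group. The Mrpl52 call ended without PBS replicate 2 or 3, at 0.87 and 0.84. Of 22 tested growth regulators, 2 were called with ATEV against PBS, where 4.74% of all genes were. Mdm2, the ubiquitin ligase that restrains p53, rose from 139, 165 and 165 CPM with PBS to 271, 239 and 261 CPM with ATEV (0.72 ± 0.19, edgeR adjusted p = 0.0453), and was higher with ATEV than with DNAse-ATEV (0.86 ± 0.19, edgeR adjusted p = 0.0379). The rise was not particular to ATEV: raw Mdm2 counts were 5450, 6617 and 6735 with NTEV, all above the PBS counts of 3482, 3513 and 3820. These counts are not scaled for depth. Library totals were 30.4, 24.0 and 20.4 M with NTEV and 26.4, 21.8 and 23.1 M with PBS. Of the 22 regulators 0 were called with NTEV against PBS (2.31% of all genes) and 0 with ATEV against NTEV (0.935%). Mxi1, a MYC antagonist, fell by 0.45 on the log2 scale (edgeR adjusted p = 0.0455), a call that ended without any one PBS library, without ATEV replicate 2 or 3, with library totals alone, with no filter on low counts and with only the 2 groups compared. Myc itself stood at 0.819 to 4.97 CPM in all libraries, and its ATEV and PBS ranges overlapped. Its raw counts with NTEV (101, 93 and 100) all lay above those with PBS (61, 33 and 19), again not scaled for depth. The largest log2 fold change of the 22 regulators with NTEV against PBS was 1.33, and it was not called. The Mdm2 call against PBS ended in each fit that left out 1 library, with values between 0.66 and 0.77. Against DNAse-ATEV it ended without ATEV replicate 2 or 3, without DNAse-ATEV replicate 1 or 2, and with library totals alone, with values between 0.76 and 0.91.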

How the data were processed

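The values are whole-number counts per gene, 1 column per library, as deposited by the authors, with no normalization visible in them. Listed among the submitters' processing notes are the build mm9, Cufflinks 2.1.1, TopHat2 2.0.11, TopHat and bcl2fastq 2.19; RNA was purified on columns and made into stranded mRNA libraries, per the labels' protocols. The sources used here do not give the read counter, annotation or strand setting, and overlapping or antisense genes cannot be told apart. Identifiers were matched to GENCODE M21 symbols (42329 of 42687; the other 358 held 0.0253 to 0.0525% of counts). Start windows come from RefSeq, build GRCm38.p6, and mRNA lengths from GENCODE M21.

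The test was edgeR's (version 4.0.16, in R 4.3.3): filterByExpr (minimum count 10, minimum total 15) kept 13261 genes, library sizes were scaled by TMM, and 1 quasi-likelihood model over 12 libraries with a mean per group (common biological coefficient of variation 0.183) gave 5 two-sided contrasts. Adjusted p-values are Benjamini-Hochberg over all tested genes, and a gene is called under 0.05. Standard errors were derived from the F statistic, and levels are TMM-scaled CPM. Shares are percent of raw counts. Library totals were 19.4 to 30.4 M, and counts cover counting error only.

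The members and the lists were chosen with earlier results of these data known, so no list was tested. Named members were called members, a panel of well known ones, the 3 highest and 3 lowest by level, and the 3 largest and 3 smallest fold changes of each contrast; of other lists, called members and a short panel. Rps18 was added after its value was seen. Some genes that meet the rule are left out of the text. Alternatives were other scalings (DESeq2 1.42.0 size factors, library totals, TMM without the members), no filter, DESeq2, limma-voom (limma 3.58.1), only the compared groups, the replicate number as a block, and leaving out each library. The scripts were tested on simulated counts.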

Additional observations from a re-analysis of the deposited data

How the results depend on the processing

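The number of ribosomal protein genes called was 0 in each of the 5 comparisons and stayed 0 under DESeq2 size factors, library totals, TMM from other genes, limma-voom and a fit of only the 2 groups compared. For ATEV against PBS it was 15 with no filter on low counts and 16 with DESeq2's Wald test. These settings called 5.7% and 11.6% of all genes, against 4.74% in the main fit. For ATEV against DNAse-ATEV they gave 1 and 2 (1.71% and 3.73% of all genes), and for ATEV against NTEV 5 and 11 (1.05% and 2.81%). Leaving out 1 library at a time gave 0 to 26, 0 to 14 and 0 to 21 calls in these comparisons, the highest each time without ATEV replicate 1. The fits without ATEV replicate 1 called 6.31%, 3.88% and 2.25% of all genes. The settings that called members shared 13 of 28 genes for ATEV against PBS, 0 of 14 against DNAse-ATEV and 0 of 24 against NTEV. The number of biogenesis factors called with ATEV against PBS, 2, became 1 with TMM from other genes (4.7% of all genes called) and 15 with no filter (5.7%). It became 18 with DESeq2 (11.6%), 20 with only the 2 groups compared (9.71%), and 0 to 4 leaving out 1 library. Why these counts differ was not tested. Medians of the members kept their sign in the 3 comparisons with ATEV.

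Deviations of same-numbered libraries correlated between -0.38 and 0.62. The correlations were -0.16, -0.02 and -0.07 for ATEV with PBS, and above 0.1 in all 3 pairs only for NTEV with DNAse-ATEV (0.62, 0.35 and 0.13), which are not compared here, so the numbers were not taken to pair the samples in any comparison made. With the replicate block, 20 members were called for ATEV against PBS, 2 against DNAse-ATEV and 2 against NTEV, and 36 biogenesis factors for ATEV against PBS. That fit called 10.9%, 1.97% and 1.02% of all genes in these 3 comparisons.

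Some values changed sign, none of them called. Leaving out 1 library, the log2 fold change with ATEV against PBS ran from -0.0625 to 0.18 for Rplp2, -0.00178 to 0.54 for Rps27l and -0.21 to 0.17 for Eef2, that of Rpl24 with NTEV against PBS from -0.58 to 0.37, and that of Rpl23 with ATEV against NTEV from -0.10 to 0.0238. Eef2 stood at 0.0453 with library totals and 0.00975 with no filter. Without ATEV replicates 2 and 3, values against PBS were 0.0128 for Rps4x, 0.0587 for Rpl23, -0.12 for Rplp2, -0.0750 for Rpl38, -0.29 for Rps27l, 0.10 for Rpl4, -0.11 for Rpl36al and 0.33 for Eef2. Against DNAse-ATEV Rps2 then stood at 0.00596, and against NTEV Rpl4 stood at 0.0923, Rps2 at 0.0264 and Rpl23 at 0.11. In that setting, chosen after seeing the data, the lone ATEV library is assumed to vary like the other groups. Low counts limit the precision for Rpl24 and Rpl3l. Over the named genes and all settings, 1026 values kept their direction and side of the threshold, 72 gained a call and 46 lost one.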
